A study of Mus musculus with 15 samples.

Results

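Complex I of the respiratory chain was followed through the transcripts of its nuclear-encoded subunits in mouse liver. The genes were chosen by name, as the rows of the deposited expression table whose symbol begins with Nduf followed by the subunit letters a, ab1, b, c, s or v and a number. This rule, which leaves out the assembly factors named Ndufaf, matched 40 of 18510 rows. Of these, 39 reached 1 FPKM in at least 5 of 15 libraries and were tested, among 10959 tested rows in all. The remaining row, Ndufb4b, read 0 in 14 libraries and 0.80 FPKM in Alc 4. All mice were wild type, and RNA was sequenced from the liver of 5 mice on a control diet (Ctrl), 5 on an alcohol diet (Alc) and 5 on an alcohol diet with UA (Alc UA), where UA is not spelled out. Strain, age, sex, and the dose and duration of alcohol or UA are not stated in the labels. Expression was given as FPKM, a fragment count corrected for transcript length and sequencing yield, so levels can be set side by side between genes. In bulk liver, fewer cells of a type and less RNA per cell cannot be told apart.

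Complex I takes electrons from NADH, hands them through a flavin and a chain of iron-sulfur clusters to ubiquinone, and couples this to the pumping of protons across the inner mitochondrial membrane. It is shaped like an L. The N module at the tip of the matrix arm oxidises NADH, the Q module below it reduces ubiquinone, and the membrane arm, with a proximal and a distal part, moves the protons. Core subunits, conserved from bacteria, carry out the chemistry, and accessory subunits surround them. In liver, the oxidation of ethanol and of acetaldehyde yields NADH, which the respiratory chain reoxidises. Of the core subunits, 7 are nuclear genes within the rule, among them Ndufs1 and Ndufv1. The core subunits encoded by mitochondrial DNA, and the accessory gene Ndufb1, were not analysed here.

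Promoters of 33 of the 39 tested genes were in RefSeq's promoter table for GRCm38.p6, which runs from 250 bases before to 50 bases after each annotated start. They were searched on both strands for the letters of 3 motifs that belong to known regulators of respiration genes: GCGCATGCG for NRF1, CCGGAAGT for the ETS factor GABP, and AAGATGGC for YY1. The YY1 letters stood in 7 of the 33 promoters (21.2%), beside 5.50% of the promoters of tested genes and 3.19% of all promoters in the table. The NRF1 letters stood in 2 promoters (6.06%), beside 4.16% and 1.95%, and the ETS letters in 1 (3.03%, Ndufs3), beside 9.58% and 4.31%. A match is a description of the letters, not a bound site. The 9 windows of 30 bases below are shown because they hold these matches, written 5′ to 3′ on the gene's strand with the motif in capitals. The first 7 hold the YY1 letters and the last 2 the NRF1 letters.
Ndufa3, chr7:3617384-3617413, + strand: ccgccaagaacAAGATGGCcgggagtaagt
Ndufs7, chr10:80249462-80249491, + strand: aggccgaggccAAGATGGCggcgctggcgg
Ndufc1, chr3:51408915-51408944, - strand: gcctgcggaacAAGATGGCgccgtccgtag
Ndufa9, chr6:126849097-126849126, - strand: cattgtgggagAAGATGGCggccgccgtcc
Ndufs6, chr13:73328433-73328462, - strand: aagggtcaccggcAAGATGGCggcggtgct
Ndufs4, chr13:114388045-114388074, - strand: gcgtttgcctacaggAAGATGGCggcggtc
Ndufb8, chr19:44555393-44555422, - strand: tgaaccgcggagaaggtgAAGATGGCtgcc
Ndufa8, chr2:36049329-36049358, - strand: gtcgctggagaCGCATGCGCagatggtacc
Ndufa11, chr17:56717692-56717721, + strand: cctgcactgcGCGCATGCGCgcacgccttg
All 7 YY1 matches lay downstream of the start, with their first base 23 to 39 bases after it, and in the sense orientation. The letters AAGATGGC contain ATG, and whether these matches span the start of translation was not checked. In Ndufa8 the NRF1 match was the reverse complement and began 9 bases before the start. In Ndufa11 the capitals hold the NRF1 letters in both orientations, which overlap, from 60 bases before the start. The genes with YY1 letters did not share a direction in the expression data described next: with median-of-ratios scaling Ndufa9 rose in Alc against Ctrl, Ndufa3 and Ndufs7 fell, and the other 4 did not pass the test.

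Summed FPKM ran from 551153 to 668832 per library, and 10119 to 11471 genes reached 1 FPKM, while the number of reads is unknown. The median tested gene was lower by 0.12 on the log2 scale in Alc than in Ctrl, and by 0.16 in Alc UA than in Ctrl. The main counts and many differences of single genes are therefore given both on the deposited scale and after scaling libraries by the median of ratios over tested genes. This scaling divided the libraries by factors of 0.863 to 1.23 and left median differences of -0.01 and 0. Where a gene is given with 1 difference only and no other setting is named, it is on the deposited scale, and the call may not hold with the scaling. Differences are of log2(FPKM + 1) ± SE, from a limma fit over the 3 groups with Benjamini-Hochberg adjustment over all tested genes at 0.05, and group levels are mean ± SD with n = 5. Markers of some other liver cells moved with diet, and those of others did not pass the test. In Alc against Ctrl, 0 of 8 Kupffer and 0 of 7 stellate markers were called on either scale, with all 8 Kupffer markers higher by value. Among tested markers, 1 of 4 cholangiocyte, 2 of 2 T and NK cell, 3 of 3 B and plasma cell and 1 of 2 neutrophil markers were lower on both scales. The 8 sinusoidal endothelial markers summed to 133 to 383 FPKM in Ctrl, 54.3 to 126 in Alc and 57.2 to 77.6 in Alc UA, with 7 of 8 lower in Alc than in Ctrl on both scales. The 5 erythroid markers summed to 1430 to 8800, 576 to 988 and 346 to 1030 FPKM, with 5 of 5 lower in Alc on both scales. The 5 hepatocyte markers with a row summed to 34400 to 55700, 44100 to 58300 and 28200 to 47600 FPKM, with 2 lower in Alc on the deposited scale and 0 with median-of-ratios scaling. No marker in these lists was at 0 in every library, and the part of these cells in the results below was not tested.

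The level of these transcripts spanned a wide range within one complex. Ndufa4 was the most abundant, at 789 ± 200 FPKM in Ctrl, 583 ± 64.9 in Alc and 521 ± 46.3 in Alc UA. The gene carries a complex I name, although its protein is now assigned to cytochrome c oxidase (complex IV). Ndufa6 and Ndufb9 followed with overall means of 260 and 252 FPKM, and these neighbours did not differ beyond their spread: Ctrl livers spanned 235 to 406 FPKM for Ndufa6 and 255 to 297 for Ndufb9. The lowest tested genes were Ndufb4c, Ndufa11 and Ndufa4l2, at overall means of 39.0, 11.4 and 1.72 FPKM. Ndufa4l2, a paralog of Ndufa4 that is not an established subunit, was below 1 FPKM only in Alc UA 2 and Alc UA 5. Among the core subunits Ndufs1 had a mean of 46.2 FPKM, in the lower part of the order (rank 35), and Ndufs3 of 116 FPKM, in the middle (rank 17). Reads of the near-identical Ndufb4, Ndufb4b and Ndufb4c, and of Ndufa12, Ndufab1 and Ndufs5, for which RefSeq lists pseudogenes, may have been shared out between copies, so these values are uncertain.

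Against control livers, complex I transcripts in livers on the alcohol diet differed in both directions, and how many were called lower depended on the scale. On the deposited scale 18 of the 39 genes were lower in Alc than in Ctrl, beside 22.8% of all tested genes, and 2, the core genes Ndufs1 and Ndufv1, were higher, beside 10.6%. The median of the 39 differences was -0.32, against -0.12 for all genes. With median-of-ratios scaling 5 were lower (Ndufa3, Ndufa5, Ndufa11, Ndufb7 and Ndufs7), beside 17.7% of all genes, and 5 were higher, among them Ndufs1, Ndufv1, Ndufa9 and Ndufa10, beside 18.4%. The median was then -0.19, against -0.01. Both scaled counts are small beside these background shares, so neither is read as a property of the complex. On the deposited scale the 18 lower became 5 without Ctrl 4, Alc 1 or Alc 5, 6 without Ctrl 1, 8 without Ctrl 2, 10 without Alc 2, and 22 without Ctrl 3 or Ctrl 5. With only Ctrl and Alc in the fit the 18 became 7, while the count over all tested genes went from 2497 to 2183. With the scaling the 5 lower became 1 without Ctrl 4 or Alc 5, 3 without Ctrl 1 or Alc 1, 9 without Ctrl 5 and 21 without Ctrl 3. The all-gene count lower in Alc moved too, from 2497 on the deposited scale to 1725 without Alc 5 and 3382 without Ctrl 5. With the scaling it moved from 1943 to 1467 without Ctrl 4 and 2214 without Ctrl 5.

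**Figure D1:**
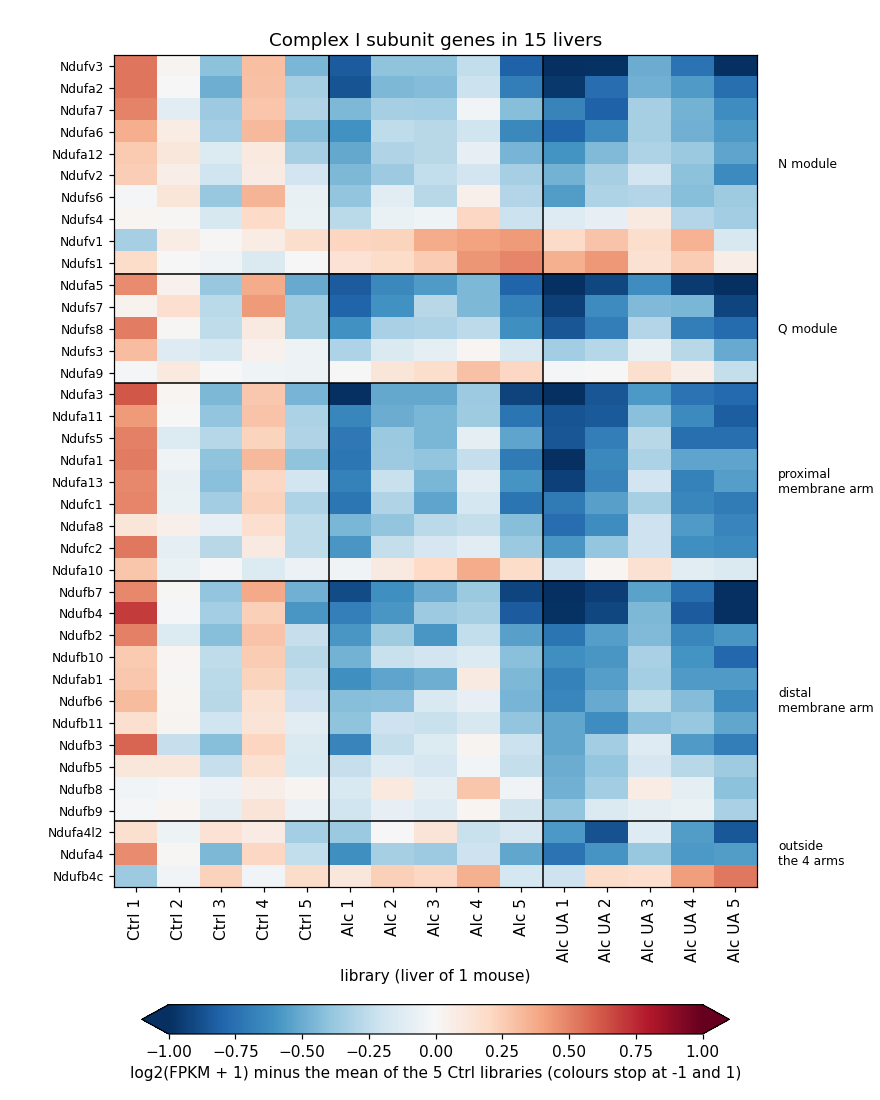
Each row is 1 gene, for 38 of the 39 tested genes grouped by arm, and each column 1 liver. Colour gives log2(FPKM + 1) minus the mean of the 5 Ctrl livers on the deposited scale, red above and blue below. Ctrl 1 and Ctrl 4 are red for most rows, and Ctrl 3 and Ctrl 5 are blue. The rows of Ndufv1 and Ndufs1 are red in every Alc liver, unlike most others, while in Ctrl 1 Ndufs1 is red as most rows are.

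The control livers differed among themselves in these genes. The median of the 39 genes, as a percent of the Ctrl mean, was 124, 101, 82.6, 116 and 84.4 in Ctrl 1 to 5, 67.0, 80.9, 82.6, 92.7 and 74.1 in Alc 1 to 5, and 62.6, 67.8, 81.5, 69.3 and 66.1 in Alc UA 1 to 5. Ctrl 3 and Ctrl 5 therefore lay within the range of the alcohol livers, and Alc 4 above both. Short transcripts as a whole also differed between control livers. Over all tested genes of up to 700 nt, the median log2 difference from the Ctrl mean was 0.39, -0.01, -0.21, 0.18 and -0.34 in Ctrl 1 to 5, and -0.60 to -0.17 in Alc, while over genes longer than 3000 nt it stayed between -0.15 and 0.15 in all 15 livers.

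In the N module, which binds NADH, the core genes went in opposite directions on the deposited scale. Ndufv1 encodes the subunit that binds NADH and the flavin. It read 63.2, 84.2, 80.7, 84.5 and 90.4 FPKM in Ctrl 1 to 5, 92.9, 93.3, 104, 106 and 108 in Alc 1 to 5, and 91.4, 97.6, 90.7, 102 and 71.6 in Alc UA 1 to 5. All 5 Alc livers lay above all 5 Ctrl livers, while Alc UA 5 lay within the Ctrl range. Ndufv1 rose in Alc by 0.33 ± 0.11 (limma adjusted p = 0.0335) on the deposited scale and by 0.46 ± 0.13 (limma adjusted p = 0.0137) with median-of-ratios scaling. Ndufs1, the largest subunit, carries iron-sulfur clusters. It read 45.8, 40.02, 39.3, 36.3 and 40.3 FPKM in Ctrl 1 to 5, 44.6, 45.8, 48.2, 54.9 and 56.8 in Alc 1 to 5, and 51.9, 54.6, 44.8, 48.1 and 42.3 in Alc UA 1 to 5. Only Ctrl 1 among the controls reached the range of the Alc livers. Ndufs1 rose in Alc by 0.30 ± 0.10 (limma adjusted p = 0.0249) and, with median-of-ratios scaling, by 0.43 ± 0.09 (limma adjusted p = 0.0026). On the deposited scale the call for Ndufv1 was lost without Ctrl 1, Ctrl 3, Alc 3, Alc 4 or Alc 5, and that for Ndufs1 without Ctrl 4, Alc 4 or Alc 5, with adjusted p of up to 0.0849 and 0.0737. With median-of-ratios scaling neither call was lost on leaving out any one liver.

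Ndufv2, the iron-sulfur partner of Ndufv1, read 84.4, 74.2, 61.9, 75.2 and 61.9 FPKM in Ctrl 1 to 5, 51.7, 55.1, 59.6, 62.03 and 56.2 in Alc 1 to 5, and 50.99, 56.1, 62.2, 53.05 and 45.4 in Alc UA 1 to 5. The highest values were in Ctrl 1, 2 and 4, and only Alc 4 and Alc UA 3 reached the lowest controls. Ndufv2 fell in Alc by 0.32 ± 0.10 (limma adjusted p = 0.0293) on the deposited scale, and its difference was -0.19 ± 0.08 (limma adjusted p = 0.0968) with median-of-ratios scaling. The deposited-scale call was lost without Ctrl 1, Ctrl 2, Ctrl 4, Alc 1, Alc 2 or Alc 5. Accessory genes of the N module gave 3 further calls in Alc on the deposited scale, all lower, for Ndufv3, Ndufa2 and Ndufa12, and none with the scaling. Of all 10 N module genes, 4 were thus lower and 2 higher on the deposited scale, beside 22.8% and 10.6% of all tested genes. With the scaling 0 were lower and 2 higher, beside 17.7% and 18.4%. Ndufv3 read 199, 139.7, 103, 168 and 99.6 FPKM in Ctrl 1 to 5, 76.5, 103, 103, 115 and 77.8 in Alc 1 to 5, and 65.6, 68.5, 96.9, 81.5 and 68.2 in Alc UA 1 to 5. Its difference from Ctrl was -0.54 ± 0.19 (limma adjusted p = 0.0372) in Alc. The accessory genes Ndufs4, Ndufs6, Ndufa6 and Ndufa7 did not pass the test in Alc on either scale.

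The Q module, where ubiquinone is reduced, also held genes that differed from Ctrl in both directions. Ndufs7, a core subunit, holds the last iron-sulfur cluster before ubiquinone. It read 105, 115, 84.3, 137 and 79.6 FPKM in Ctrl 1 to 5, 58.05, 66.7, 83.9, 74.6 and 63.5 in Alc 1 to 5, and 52.95, 65.5, 74.9, 73.97 and 53.6 in Alc UA 1 to 5. Of the Alc livers only Alc 3 overlapped the controls. Ndufs7 fell in Alc on both scales, with differences of -0.56 ± 0.15 (limma adjusted p = 0.0126) and -0.43 ± 0.14 (limma adjusted p = 0.0249). The scaled call was lost without Ctrl 2, Ctrl 4, Alc 1 or Alc 5.

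Ndufa5, an accessory subunit on the matrix arm, read 290.5, 215, 160.2, 271 and 147 FPKM in Ctrl 1 to 5, 117, 133, 141, 153 and 119 in Alc 1 to 5, and 103, 110.5, 135, 107 and 86.96 in Alc UA 1 to 5. Alc 4 alone of the Alc livers overlapped the controls, just above Ctrl 5. Its differences in Alc were -0.66 ± 0.18 (limma adjusted p = 0.0109) on the deposited scale and -0.53 ± 0.15 (limma adjusted p = 0.0141) with median-of-ratios scaling, and both calls held without any one liver. Ndufs8, a core subunit with iron-sulfur clusters, fell on the deposited scale, from 73.5 ± 18.4 to 53.6 ± 6.34 FPKM, with a difference of -0.42 ± 0.15 (limma adjusted p = 0.0414), a call lost without any one of 7 livers. With the scaling its difference was -0.29 ± 0.12 (limma adjusted p = 0.0727). Ndufs3, a core subunit without a cluster, did not pass the test, with -0.14 ± 0.11 (limma adjusted p = 0.324) and, with the scaling, -0.01 ± 0.09 (limma adjusted p = 0.957). Ndufa9, an accessory subunit that binds NADPH, went from 98.3 ± 4.17 to 110 ± 8.1 FPKM, with 0.16 ± 0.09 (limma adjusted p = 0.159) on the deposited scale and 0.29 ± 0.08 (limma adjusted p = 0.0121) with the scaling.

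**Figure D2:**
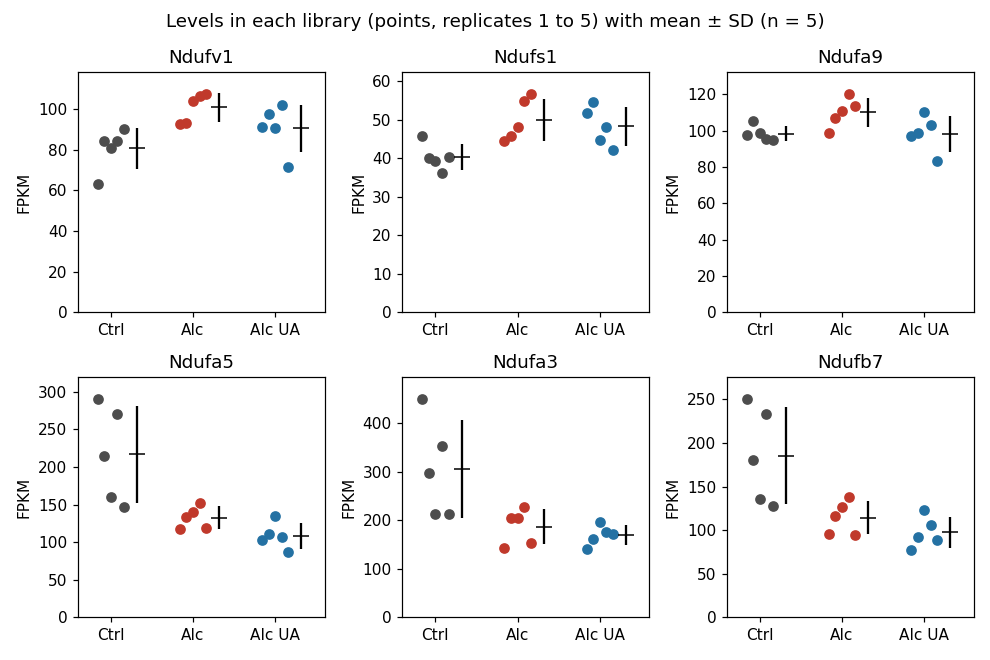
FPKM of 6 genes in each liver, as points in the order of replicates 1 to 5, with mean ± SD beside them (n = 5 per group). Ndufv1, Ndufs1 and Ndufa9 in the upper row are higher in most Alc livers than in most Ctrl livers, and Ndufa5, Ndufa3 and Ndufb7 in the lower row are lower, with Ctrl 3 and Ctrl 5 near the alcohol livers.

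In the proximal membrane arm, 5 of 9 genes fell in Alc on the deposited scale (Ndufa1, Ndufa3, Ndufa8, Ndufa11 and Ndufc1), and 2 of these, Ndufa3 and Ndufa11, also with median-of-ratios scaling. The shares of all tested genes lower in Alc were 22.8% and 17.7%, so the scaled count is near its background. Ndufa3, a small accessory subunit of the membrane arm, read 450.5, 298, 214, 354 and 213 FPKM in Ctrl 1 to 5, 144, 206, 205, 227 and 153 in Alc 1 to 5, and 141, 162, 197, 175 and 171 in Alc UA 1 to 5. The Ctrl values spread more widely than those of either alcohol group, and Alc 4 overlapped Ctrl 3 and Ctrl 5. Its differences were -0.67 ± 0.19 (limma adjusted p = 0.0169) and, with the scaling, -0.54 ± 0.17 (limma adjusted p = 0.0232). Ndufa11, a membrane subunit, read 20.5, 14.96, 11.2, 18.5 and 11.8 FPKM in Ctrl 1 to 5, 9.17, 10.4, 10.6, 11.5 and 8.62 in Alc 1 to 5, and 7.81, 7.94, 10.99, 9.30 and 8.02 in Alc UA 1 to 5. Alc 4 alone overlapped the controls. The differences of Ndufa11 were -0.54 ± 0.15 (limma adjusted p = 0.0132) and -0.42 ± 0.13 (limma adjusted p = 0.0218). With the scaling, the call for Ndufa3 was lost without Ctrl 1, Ctrl 4, Alc 1 or Alc 5, and that for Ndufa11 without Ctrl 1, Ctrl 4 or Alc 5. Ndufa10, whose protein is related to nucleoside kinases, went the other way, from 105 ± 12.4 to 118 ± 12.6 FPKM, with 0.16 ± 0.10 (limma adjusted p = 0.228) on the deposited scale and 0.29 ± 0.08 (limma adjusted p = 0.00956) with the scaling.

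In the distal membrane arm, 5 of 11 genes fell in Alc on the deposited scale (Ndufb2, Ndufb4, Ndufb7, Ndufb11 and Ndufab1), and Ndufb7 alone with median-of-ratios scaling. Beside the same 22.8% and 17.7% of all tested genes, the scaled count is below its background. Ndufb7 is an accessory subunit on the intermembrane space side. It read 250.3, 180.3, 136, 233 and 128 FPKM in Ctrl 1 to 5, 95.99, 117, 126, 138 and 94.1 in Alc 1 to 5, and 77.8, 92.6, 123, 106 and 88.3 in Alc UA 1 to 5. Alc 4 overlapped Ctrl 3 and Ctrl 5, and the other Alc livers lay below every control. Its differences were -0.66 ± 0.19 (limma adjusted p = 0.0153) and -0.53 ± 0.16 (limma adjusted p = 0.0192), and the scaled call was lost without Ctrl 4 or Alc 5. Ndufab1, the mitochondrial acyl carrier protein, read 149.7, 125, 103, 145 and 105 FPKM in Ctrl 1 to 5, 80.8, 85.9, 87.99, 132 and 90.7 in Alc 1 to 5, and 77.2, 84.6, 97.7, 83.5 and 83.5 in Alc UA 1 to 5. Alc 4 stood apart from the other Alc livers and within the Ctrl range. Its difference was -0.40 ± 0.14 (limma adjusted p = 0.0373) on the deposited scale and -0.27 ± 0.12 (limma adjusted p = 0.098) with the scaling, and the deposited-scale call was lost without any one of 7 livers. Ndufb8 and Ndufb9 did not pass the test, with 0.02 ± 0.11 (limma adjusted p = 0.905) and -0.12 ± 0.09 (limma adjusted p = 0.324), and the sign for Ndufb9 turned with the scaling, to 0.02 ± 0.09.

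**Figure D3:**
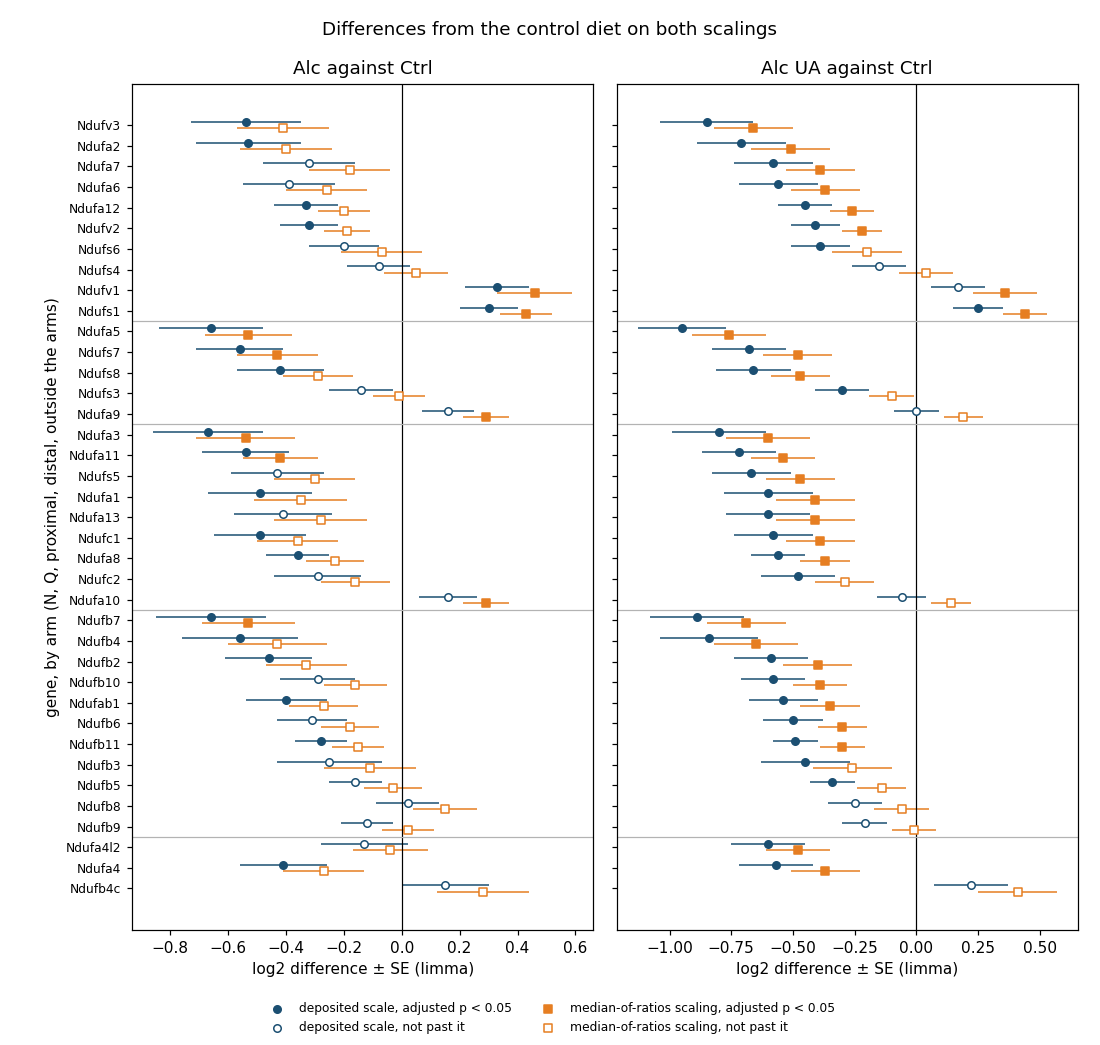
Log2 differences from Ctrl ± SE for 38 of the 39 genes, by arm, in Alc and in Alc UA. Circles are the deposited scale and squares median-of-ratios scaling, filled where the limma adjusted p is under 0.05. Scaling shifts every gene to the right by a like amount, and Ndufv1 and Ndufs1 lie right of 0 on both scales in both panels.

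The balance between subunits within a liver does not change with a factor applied to the whole library, but it is not freed of the length trend described below. These ratios were chosen after the values were seen and carry no test. Ndufv1 per Ndufv2 was 0.749 to 1.46 in Ctrl, 1.69 to 1.91 in Alc and 1.46 to 1.92 in Alc UA, so all 5 Alc livers lay above all controls. Ndufs1 per Ndufa5 was 0.134 to 0.274 in Ctrl, 0.342 to 0.476 in Alc and 0.331 to 0.505 in Alc UA, so every alcohol liver lay above every control. The mean log2 FPKM of the 7 core genes minus that of the 29 accessory genes was -0.87, -0.62, -0.49, -0.78 and -0.48 in Ctrl 1 to 5, -0.50 to -0.25 in Alc and -0.43 to -0.22 in Alc UA. The Alc livers overlapped Ctrl 3 and Ctrl 5 in this measure and the Alc UA livers did not. The transcript of Ndufs1 has 2625.5 nt and that of Ndufa5 875 nt. Those of Ndufv1 and Ndufv2 are close in length, at 1661 and 1697 nt, with coding sequences of 1392 and 744 nt. The median differences of core and other members in Alc were -0.14 and -0.34 on the deposited scale, and 0.12 and 0.01 with the length trend removed. The part of length in these ratios was not tested. Among the 7 core genes 2 were higher and 3 lower in Alc on the deposited scale, and 3 higher and 1 lower with median-of-ratios scaling. Of the other 32 tested genes, 0 were higher and 15 lower, and with the scaling 2 and 4, beside the all-gene shares of 10.6% higher and 22.8% lower, and 18.4% and 17.7% with the scaling.

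**Figure D4:**
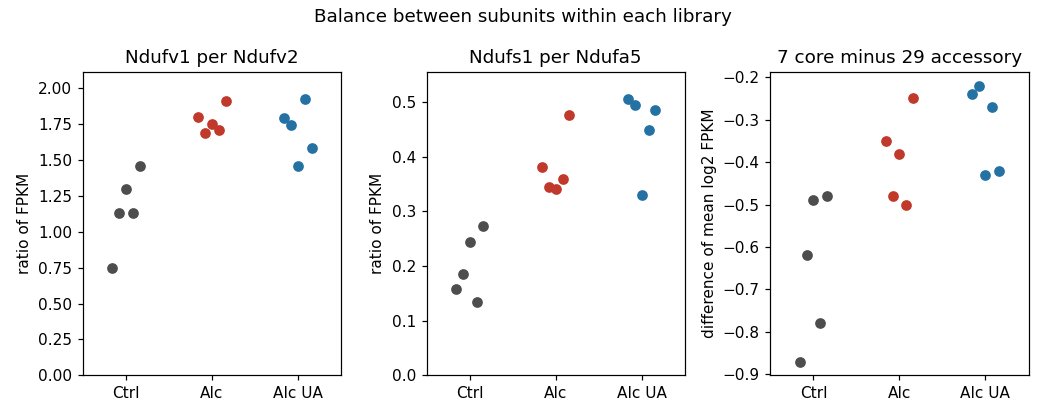
Ratios of FPKM between subunits, and the difference between the mean log2 FPKM of 7 core and 29 accessory genes, with 1 point per liver in the order of replicates 1 to 5. The Alc points of Ndufv1 per Ndufv2, from 1.69 to 1.91, lie above all Ctrl points, and Ctrl 3 and Ctrl 5 lie nearest to the alcohol livers in each panel.

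Across the whole table the differences from Ctrl followed transcript length. Lengths were taken from GENCODE M21 for 38 of the 39 tested genes, which may not be the annotation behind the table. A gene's length was the median over its protein-coding transcripts that share the longest coding sequence. This gave Ndufb2 2413 nt, Ndufab1 2447.5 nt and Ndufv2 1697 nt, although their coding sequences have 315, 468 and 744 nt. All 3 were lower in Alc on the deposited scale and count among the members of 1500 to 3000 nt. Whether liver uses these long forms was not checked. Over all tested genes of up to 700 nt the median difference between Alc and Ctrl was -0.42 on the deposited scale, and 42.6% were lower, beside a median of -0.40 and 7 of 14 for complex I genes of that length. Between 700 and 1500 nt the medians were -0.26 for all genes and -0.29 for the 15 complex I genes, with 34.6% and 7 of 15 lower. Between 1500 and 3000 nt they were -0.14 and -0.08, with 24.1% of all genes and 4 of 9 members lower, and 10.3% and 2 of 9 higher. Beyond 3000 nt, where no member lies, the median was -0.06. Across genes, which are not independent and share the same livers, Spearman's rho between length and difference was 0.38 over the 38 members and 0.22 over 10801 genes. When the trend on length was removed from each library, an alternative chosen after seeing the data, the median of the members was 0.02, 2 were lower (Ndufa5 and Ndufb7), beside 18.1% of all genes, and 6 were higher, among them Ndufs1, Ndufv1, Ndufa9, Ndufa10 and Ndufb8, beside 18.5%.

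**Figure D5:**
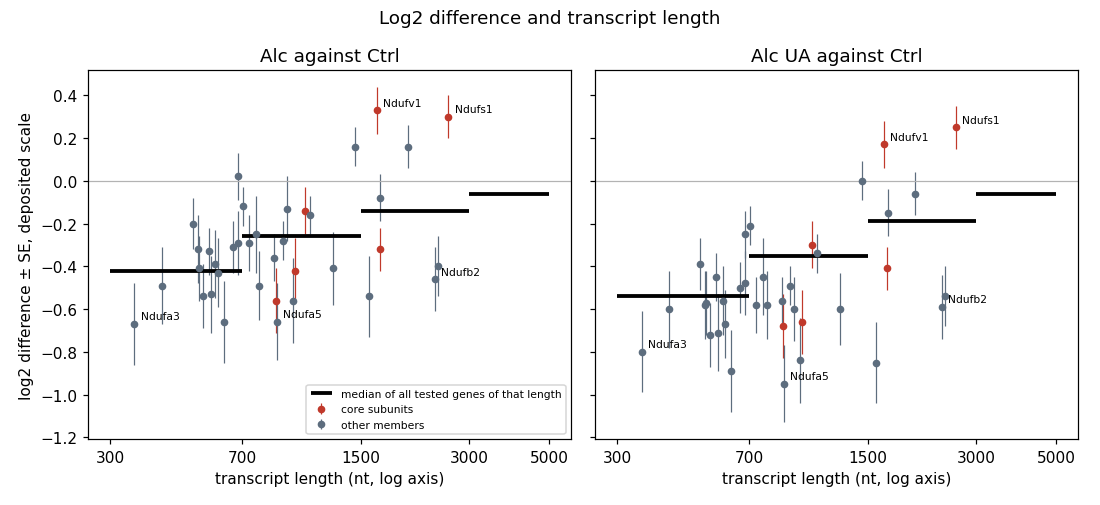
Log2 difference from Ctrl ± SE on the deposited scale against transcript length in nt on a log axis, for all but 1 of the 38 tested members with a length, in Alc and in Alc UA. Red points are core subunits and black bars the median of all tested genes in each length range, which rise from -0.42 to -0.06 in Alc. Ndufv1 and Ndufs1 lie above the bars in both panels, and in Alc UA the members between 700 and 1500 nt, with a median of -0.58, lie mostly below a bar at -0.35.

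Most complex I transcripts were lower in livers given alcohol with UA than in control livers. On the deposited scale 30 of the 39 were lower in Alc UA than in Ctrl, beside 32.1% of all tested genes, and 1, Ndufs1, was higher, beside 10.5%. The median was -0.56, against -0.16 for all genes. With median-of-ratios scaling 25 were lower, beside 21.6% of all genes, and 3 were higher, among them Ndufs1 and Ndufv1, beside 22.1%, with a median of -0.37 against 0. This comparison shares its Ctrl livers with that of Alc and Ctrl. The scaled count of 25 moved to 13 without Ctrl 4 or without Alc UA 2, to 14 or 15 without Ctrl 1, Alc UA 1 or Alc UA 4, and to 29 without Ctrl 3. The scaled all-gene count of 2362 lower moved to 1967 without Ctrl 4 and 2602 without Ctrl 5. With the length trend removed 10 were lower, beside 21.2% of all genes, 4 were higher, beside 20.5%, and the median was -0.09. By length, the medians of members and of all genes were -0.57 and -0.54 up to 700 nt, -0.58 and -0.35 between 700 and 1500 nt, and -0.15 and -0.19 between 1500 and 3000 nt. Up to 700 nt, 13 of 14 members and 66.4% of all genes were lower on the deposited scale. Between 700 and 1500 nt these were 13 of 15 and 47.7%, and between 1500 and 3000 nt 4 of 9 and 34.1%. With median-of-ratios scaling they were 11 of 14 and 47.3%, 10 of 15 and 32.8%, and 4 of 9 and 22.2%.

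Of the 10 N module genes, 7 fell and Ndufs1 rose on the deposited scale, and 6 fell and 2 rose with the scaling, beside 32.1% and 21.6% of all tested genes lower on each scale. Ndufv1 was at 90.7 ± 11.6 FPKM beside 80.6 ± 10.3 in Ctrl, a difference of 0.17 ± 0.11 (limma adjusted p = 0.235), and of 0.36 ± 0.13 (limma adjusted p = 0.0357) with the scaling. Ndufs1 was at 48.3 ± 5.03 FPKM beside 40.3 ± 3.45, with 0.25 ± 0.10 (limma adjusted p = 0.0436) and 0.44 ± 0.09 (limma adjusted p = 0.00156). The scaled call for Ndufv1 was lost without Ctrl 1, Ctrl 3, Alc UA 1, Alc UA 2 or Alc UA 4, and the deposited-scale call for Ndufs1 without any one of 9 livers, with adjusted p of up to 0.106. Ndufv3 was at 76.1 ± 13.1 FPKM beside 142 ± 42.6, with -0.85 ± 0.19 (limma adjusted p = 0.00251), and every Alc UA liver lay below every control. In the Q module 4 of 6 fell on the deposited scale and 3 with the scaling, against the same shares. Ndufa5 had the largest difference of any member on the deposited scale, from 217 ± 64.1 to 108 ± 17.5 FPKM, or 50% of the Ctrl mean, with -0.95 ± 0.18 (limma adjusted p = 0.000836) and -0.76 ± 0.15 (limma adjusted p = 0.0012). The core genes Ndufs7 and Ndufs8 also fell, to 61.6% and 62.0% of their Ctrl means, with -0.68 ± 0.15 (limma adjusted p = 0.00316) and -0.66 ± 0.15 (limma adjusted p = 0.0032) on the deposited scale.

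In the membrane arm, 8 of 9 proximal and 9 of 11 distal genes fell in Alc UA on the deposited scale, and 7 and 7 with the scaling, beside 32.1% and 21.6% of all tested genes. Among all tested genes of up to 700 nt, these shares were higher, at 66.4% and 47.3%. Between 700 and 1500 nt they were 47.7% and 32.8%. Ndufb10 read 318, 269, 222, 316 and 218 FPKM in Ctrl 1 to 5, 191, 227, 232, 241 and 199 in Alc 1 to 5, and 173, 176, 212, 174 and 154 in Alc UA 1 to 5. Every Alc UA liver lay below every control. Its differences from Ctrl in Alc UA were -0.58 ± 0.13 (limma adjusted p = 0.00236) and -0.39 ± 0.11 (limma adjusted p = 0.0122). Ndufb11, an accessory subunit encoded on the X chromosome, read 158, 144, 124, 155 and 131 FPKM in Ctrl 1 to 5, 107, 122, 121, 127 and 107 in Alc 1 to 5, and 98.4, 92.1, 106, 109 and 98.8 in Alc UA 1 to 5. The Alc UA livers again lay below all controls, with differences of -0.49 ± 0.09 (limma adjusted p = 0.000851) and -0.30 ± 0.09 (limma adjusted p = 0.0189), the scaled call being lost without Ctrl 4 or Alc UA 2. Ndufa8, an accessory subunit on the intermembrane space side, was at 97.6 ± 15.4 FPKM beside 144 ± 16.7 in Ctrl, with -0.56 ± 0.11 (limma adjusted p = 0.00119) and -0.37 ± 0.10 (limma adjusted p = 0.00616). With the length trend removed, the calls for Ndufb10, Ndufb11 and Ndufa8 were all lost. The differences were then -0.14 (limma adjusted p = 0.112), -0.11 (limma adjusted p = 0.295) and -0.17 (limma adjusted p = 0.0832). In all, 10 members had no overlap between the Alc UA and Ctrl values in FPKM, all lower, beside 14.7% of all tested genes lower without overlap and 5.48% higher: Ndufa3, Ndufa5, Ndufa11, Ndufab1, Ndufb2, Ndufb7, Ndufb10, Ndufb11, Ndufs7 and Ndufv3. Ndufa10, Ndufb8 and Ndufb9 did not pass the test, at 96.0%, 84.7% and 86.9% of the Ctrl mean.

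Outside the arms, Ndufa4 fell from Ctrl to Alc UA by 0.57 ± 0.15 (limma adjusted p = 0.00808) on the deposited scale, and its difference with the scaling was -0.37 ± 0.14 (limma adjusted p = 0.0433). The scaled call was lost without any one of 11 livers, with adjusted p of up to 0.11, and without Ctrl 1 and Ctrl 5 together (limma adjusted p = 0.152). Ndufa4 read 1069, 777, 562, 889 and 649 FPKM in Ctrl 1 to 5, 501, 609.7, 598, 668 and 537 in Alc 1 to 5, and 461, 511, 591, 517 and 523 in Alc UA 1 to 5. In Alc its call on the deposited scale lay just inside the threshold and was lost without any one of 12 livers, and with the scaling its difference was -0.27 ± 0.14 (limma adjusted p = 0.139). Ndufa4l2 read 2.51, 2.02, 2.46, 2.32 and 1.48 FPKM in Ctrl 1 to 5, 1.42, 2.12, 2.42, 1.69 and 1.79 in Alc 1 to 5, and 1.11, 0.71, 1.87, 1.13 and 0.74 in Alc UA 1 to 5. All Alc UA livers but Alc UA 3 lay below the lowest control and the lowest Alc liver. Its difference was -0.60 ± 0.15 (limma adjusted p = 0.00503) in Alc UA and -0.13 ± 0.15 (limma adjusted p = 0.522) in Alc, at levels where the pseudocount of 1 FPKM shrinks the change. With the length trend removed, the Alc UA calls for Ndufa4 and Ndufa4l2 were lost, at -0.05 (limma adjusted p = 0.652) and -0.22 (limma adjusted p = 0.138). Ndufb4c went from 35.6 ± 5.67 FPKM in Ctrl to 41.8 ± 8.09 in Alc UA and passed no test.

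Between the alcohol groups, which asks what UA added to the alcohol diet, no member passed the test in either direction, on the deposited scale or with median-of-ratios scaling. In limma, 1 of all tested genes was higher (0.00912%) and 0 were lower (0%) on each scale. With the length trend removed the members again gave 0 calls, beside 1 of all genes higher (0.00926%). At an unadjusted p under 0.05, 156 genes were higher and 508 lower on the deposited scale, and 372 and 383 with the scaling. Of the 39 members 38 were lower in Alc UA by value, with a median of -0.18 beside -0.05 for all genes, of which 65.0% were lower. With the scaling 36 were lower by value, with a median of -0.12 beside 0. At an unadjusted p under 0.05 there were 5 members on the deposited scale and 1 with the scaling. Ndufa4l2 had the smallest adjusted p, with -0.47 ± 0.15 (limma adjusted p = 0.672). The differences of Ndufv1 and Ndufs1 were -0.16 ± 0.11 (limma adjusted p = 0.846) and -0.05 ± 0.10 (limma adjusted p = 0.943). A p that misses the threshold does not show that the diets gave equal levels.

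Complex I also needs assembly factors that are absent from the finished complex. Of 19 tested factors 3 rose and 1 fell in Alc against Ctrl on the deposited scale, and 5 rose and 1 fell with the scaling. Of all tested genes 10.6% rose and 22.8% fell on the deposited scale, and 18.4% and 17.7% with the scaling, so the higher counts are near their background. Nubpl, which delivers iron-sulfur clusters to complex I, rose from 4.82 ± 1.33 to 10.4 ± 1.16 FPKM in Alc, a difference of 1 ± 0.14 (limma adjusted p = 0.000227), and stood at 10.9 ± 1.33 FPKM in Alc UA. Tmem126b and Timmdc1, factors for the membrane arm, rose in Alc by 0.34 ± 0.11 (limma adjusted p = 0.0235) and 0.25 ± 0.08 (limma adjusted p = 0.0303). Ndufaf4 fell from 10.8 ± 1.83 to 8.11 ± 0.60 FPKM, with -0.36 ± 0.11 (limma adjusted p = 0.0219). In Alc UA against Ctrl 2 factors rose and 6 fell on the deposited scale, and 5 and 2 with the scaling, beside all-gene shares of 10.5% and 32.1%, and 22.1% and 21.6%.

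Of 12 regulators of respiration genes, 3 rose and 3 fell in Alc against Ctrl on the deposited scale, and 3 and 2 with the scaling, beside all-gene shares of 10.6% and 22.8%, and 18.4% and 17.7%, so the lower counts are near their background. Gabpa, the DNA-binding part of GABP, rose from 7.88 ± 0.702 to 9.78 ± 0.327 FPKM, with 0.28 ± 0.08 (limma adjusted p = 0.0146), while its partner Gabpb1 fell from 5.01 ± 1.07 to 3.37 ± 0.494 FPKM, with -0.45 ± 0.14 (limma adjusted p = 0.0207). Ppargc1b, a coactivator, rose by 0.45 ± 0.14 (limma adjusted p = 0.0216). Its paralog Ppargc1a, at 2.69 ± 0.527 FPKM in Ctrl and 3.19 ± 1.34 in Alc, did not pass the test, nor did Nrf1, Tfam, Esrra or Yy1. Among 38 tested subunits of complexes II to V, 5 rose and 9 fell in Alc on the deposited scale, and 8 and 4 with the scaling. Against the all-gene shares of 10.6% higher and 22.8% lower, and 18.4% and 17.7% with the scaling, the counts are near background, apart from the scaled lower count, which is below it. By group mean, Sdha, the flavoprotein of complex II, went from 100 ± 27.7 FPKM in Ctrl to 166 ± 30.8 in Alc. Cox7c, a small subunit of complex IV, went from 836 ± 283 to 540 ± 82.1 FPKM. No test is given here for either gene. In Alc UA against Ctrl 3 of the 38 rose and 25 fell on the deposited scale, and 6 and 13 with the scaling, beside all-gene shares of 10.5% and 32.1%, and 22.1% and 21.6%.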

How the data were processed

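Liver RNA of 15 mice was sequenced on an MGISEQ platform, per the labels, with 5 mice in each of 3 groups. The authors deposited 1 table of FPKM values for 18510 rows named by gene symbol, with columns matched to mice by letter and number. The submitters' processing notes list DESeq, StringTie, RSEM 1.2.8, HISAT2 2.1.0 and Bowtie2 2.2.5 and assign them no role. Genome build, annotation and strand setting were not given in the sources used here, and read depth is unknown. Count models were not applied to FPKM. Values were tested as log2(FPKM + 1) in rows that reached 1 FPKM in 5 or more of 15 libraries, with limma 3.58.1 in R 4.3.3 (group means, variance trend, 12 residual degrees of freedom). The fit was checked on simulated data. Each p measures a difference against the spread between mice. Each library was left out in turn, and other scalings, filters, pseudocounts, weights and a replicate block were tried.

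Members, gene lists and markers were chosen with earlier results of these data known. Genes named with full statistics were, per comparison, the 10 members with the smallest p past the threshold, up to 10 called with median-of-ratios scaling, the 7 core subunits, Ndufa4, Ndufa4l2 and Ndufab1, and the 3 highest and 3 lowest by level. Other named values, among them Ndufb8, the assembly factors, the regulators and the subunits of complexes II to V, were picked from those lists after their values were seen. For 1 gene that enters the counts and medians, single values are not reported here. Python 3.11.15 with matplotlib 3.10.9 made the figures.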

Additional observations from a re-analysis of the deposited data

Results flagged for a closer look

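Within groups of 5 livers, single values stood apart from the rest in 5 of 117 groups, by a gap to the nearest value over 0.71 of the group's range, and chance gives about 1 in 20. Ndufab1 in Alc was flagged at 0.807, with Alc 4 at 132 FPKM and the next liver at 90.7. Ndufa7 in Alc was flagged at 0.75, with Alc 4 at 192 FPKM and the next at 156. Ndufa10 in Ctrl was flagged at 0.743, with Ctrl 1 at 127 FPKM and the next at 104. Ndufs8 and Ndufs5 in Alc UA were flagged at 0.746 and 0.757, with Alc UA 3 at 58.4 and 136 FPKM and the next livers at 44.2 and 102. In all 5 groups the liver that stood apart was the highest.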

How the results depend on the processing

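Counts of complex I genes called depended on scaling and on single livers. For Alc against Ctrl, the 2 genes higher became 5 with median-of-ratios scaling or equal FPKM sums, 4 with library weights, 1 without Ctrl 1 and Ctrl 5 and 6 with the length trend removed, and 0 to 3 on leaving out single livers. The 18 lower became 5 with either scaling, 11 with no filter, 7 with only both groups compared in the fit and 2 with the length trend removed, and 5 to 22 without single livers. The median of -0.32 became 0.02 with the length trend removed, and -0.39 to -0.25 without single livers. For Alc UA against Ctrl, the 1 gene higher became 3 with median-of-ratios scaling, 2 with equal sums, quantile normalization or library weights, 4 with the length trend removed, and 0 with only both groups in the fit, and 0 to 1 without single livers. The 30 lower became 10 with the length trend removed and 27 to 31 without single livers, and the median of -0.56 became -0.09, and -0.63 to -0.46. With median-of-ratios scaling, the 5 lower in Alc became 3 without Ctrl 1 and Ctrl 5 and 1 to 21 without single livers. The 25 lower in Alc UA became 13 without those controls and 13 to 29, and the 3 higher became 2 to 5. Counts over all tested genes moved as well. In Alc against Ctrl, 2497 lower became 1943 with median-of-ratios scaling and 1294 with equal sums. They became 2183 with only both groups in the fit, and 1725 to 3382 without single livers. The 1157 higher became 2012, 1602, 1027 and 846 to 1231 in those settings. In Alc UA against Ctrl, 3521 lower became 2362, 2540, 3054 and 2793 to 4210. The 1152 higher became 2425, 1310, 991 and 876 to 1275. The cause of these shifts was not tested. No setting gave a call of a complex I gene between Alc UA and Alc. Over all tested genes, 1 was higher in Alc UA than in Alc on the deposited scale, 2 with equal sums and 3 with library weights. Without single livers this count was 1 to 5.

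Deviations of same-numbered livers correlated at -0.30 to 0.29, which cannot decide whether the replicate numbers pair the mice. As a replicate block, the numbers left 2 complex I genes higher and 15 lower in Alc than in Ctrl, and 0 higher and 28 lower in Alc UA than in Ctrl. Over all tested genes the block left 1060 higher and 2494 lower in Alc, and 1051 and 3483 in Alc UA.

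The sign of several single genes turned. On the deposited scale Ndufa4, Ndufa6 and Ndufb11 had Alc differences from Ctrl of -0.41, -0.39 and -0.28. With the length trend removed, the Alc difference from Ctrl was 0.02 for Ndufb11, 0.12 for Ndufs3, 0.01 for Ndufa4, 0.16 for Ndufa4l2, 0.00 for Ndufa6 and 0.24 for Ndufb9. The Alc UA difference from Ctrl was then 0.04 for Ndufs3 and 0.24 for Ndufb9, and that from Alc 0.00 for Ndufs1. Ndufs3 in Alc was 0.00 with equal sums, Ndufa4l2 0.04 with quantile normalization, and Ndufb9 0.02, 0.02 and 0.01 with median-of-ratios, equal sums and quantile normalization. Between Alc UA and Alc, Ndufs1 was 0.01 with median-of-ratios scaling. Without Ctrl 1 and Ctrl 5 and with median-of-ratios scaling, Ndufs3 in Alc was 0.08 and Ndufb9 0.00. Without single livers, the difference between Alc UA and Alc ranged over -0.01 to 0.17 for Ndufb4c on the deposited scale. With median-of-ratios scaling it ranged over -0.04 to 0.07 for Ndufs1, -0.10 to 0.00 for Ndufs7 and -0.12 to 0.01 for Ndufab1. On that scale the Alc difference from Ctrl ranged over -0.07 to 0.03 for Ndufs3, -0.09 to 0.01 for Ndufa4l2 and -0.03 to 0.07 for Ndufb9, and the Alc UA difference from Ctrl over -0.06 to 0.04 for Ndufb9. The share of promoters with the NRF1 letters rose from 6.06% to 33.3% when 1 mismatch was allowed, beside 21.2% for tested genes.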
